A study of Caenorhabditis elegans with 2 samples.

Results

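The 10 genes described here encode proteins that attach body wall muscle to the basement membrane in the nematode Caenorhabditis elegans: unc-52, pat-2, pat-3, unc-112, pat-4, pat-6, unc-97, deb-1, unc-95 and lim-9. They were listed by name among 19973 protein-coding genes of the Ensembl release 115 annotation, and all 10 names matched. Chromatin immunoprecipitation sequencing (ChIP-seq) had mapped LIN-14, a nuclear regulator whose activity marks the first larval stage (L1), and each gene was described by the LIN-14 peaks whose summit lay from 5 kb upstream to 1 kb downstream of it, called its gene window below. The worms were of strain OP768, an unc-119(tm4063) mutant with the insertion wgls768, which holds lin-14::TY1::EGFP::3xFLAG and a working unc-119 copy. The animals were L1 larvae of both sexes, 6 hours old, from a population synchronised by bleaching and starvation, and the tagged protein was pulled down with an antibody to GFP. The design had 1 group with 2 biological replicates and no second condition. The tagged copy came from a transgene, and whole larvae were used, so a peak cannot be assigned to muscle or to any other tissue. The labels leave unsaid whether the larvae had been fed by then. Enrichment at a site says nothing of whether the gene near it responds to LIN-14.

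In body wall muscle the contractile filaments are anchored to the cell membrane at dense bodies, which hold the thin filaments, and at M-lines, which hold the thick filaments. Both structures are built over integrin, a receptor of an alpha and a beta chain that binds the extracellular matrix outside the cell and recruits adaptor proteins inside it. Perlecan in the matrix, kindlin, and the complex of integrin-linked kinase, parvin and PINCH are needed early for these sites to form, and worms that lack several of them stop development as paralysed embryos. Vinculin is found at dense bodies and not at M-lines, while LIM-domain proteins such as UNC-95 and LIM-9 join the sites as later components.

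Peaks were taken from the list that had passed an irreproducible discovery rate (IDR) threshold, which held 11507 peaks. Each peak has a score, the strength given by the authors' peak caller, which is no read count and has no stated scale. Over that list the scores ran from 147.5 to 13287.5 with a median of 358.7. The lists called on replicate 1, on replicate 2 and on both together (the pooled list) held 25357, 27170 and 24683 peaks. The replicate lists have score scales of their own, whereas each IDR-thresholded peak has the same score in the pooled list. Read depth is unknown, since the lists hold no read counts.

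Every one of the 10 attachment genes had at least 1 LIN-14 peak in its gene window. The share over all protein-coding genes was 45.1%. There were 40 peaks in all, none of them in the windows of 2 attachment genes, and their scores ran from 154.8 to 2781 with a median of 370.5, close to the 358.7 of the whole list. In a promoter window, which reached from 1000 bp before to 200 bp after an annotated transcript's 5′ end, 7 of the 10 genes had a peak, against 23.0% of all protein-coding genes. Among these 7, unc-52 and lim-9 have 8 annotated 5′ ends each and had promoter peaks only at internal ones. A gene with more 5′ ends has more promoter sequence to hold a peak. At 9 of the 10 at least 1 peak lay nearer to a 5′ end of that gene than to one of any other protein-coding gene, against 27.6% of all. At 3 of the 10, unc-112, unc-52 and lim-9, there was a peak between the start and end of the gene, against 10.7% of all. The windows of the attachment genes are longer than most, with a median of 11.3 kb against 8.03 kb over all genes, and a longer window takes in more sequence. Per kb of window there were 0.229 peaks over the attachment genes, against 0.105 over all protein-coding genes.

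By place, 10 of the 40 summits lay in promoter windows, 10 farther upstream, 15 in introns and 5 past the 3′ end, and none lay in a coding exon or an untranslated region outside the promoter windows. Intronic summits were 37.5% of those at the attachment genes, against 14.7% over all protein-coding genes. In the shares over all genes, a summit was counted for each gene window that held it. Counted in this way, promoter windows held 28.5% over all genes and sequence farther upstream 45.5%. Of the 15 intronic summits, 14 belonged to unc-52 and lim-9.

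**Figure D1:**
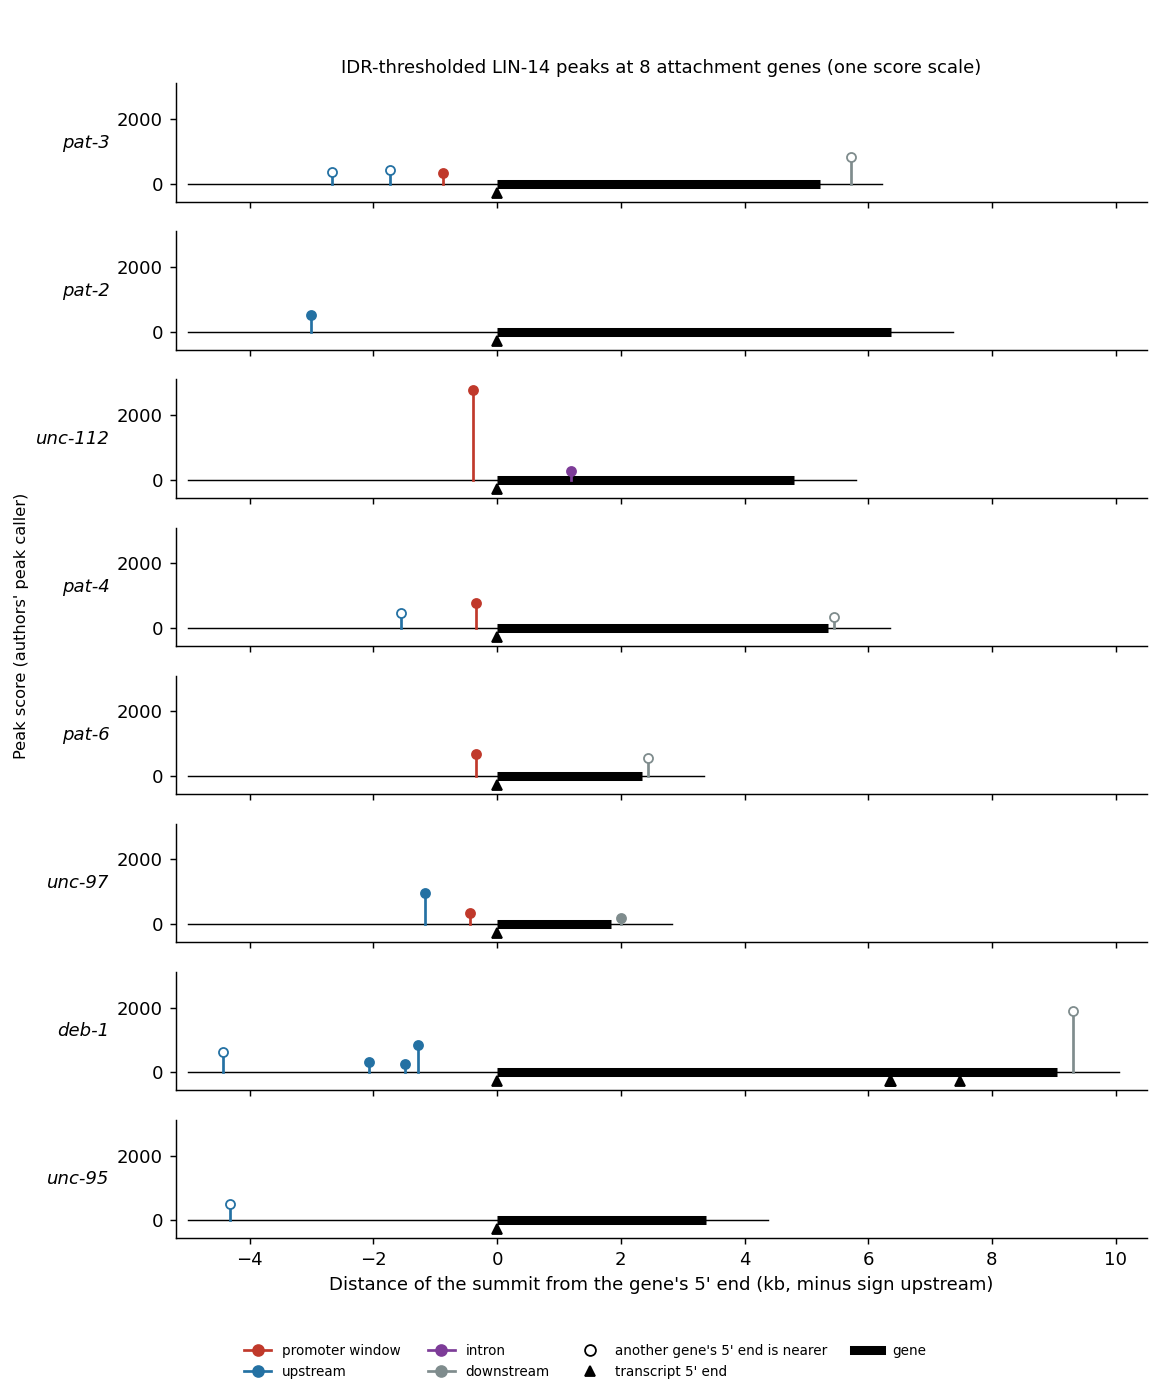
LIN-14 peaks at the 8 shorter attachment genes, with the distance of each summit from the gene's 5′ end in kb (x axis) against the score of the peak in the IDR-thresholded list (y axis, the same scale in each panel). Colours give the place of the summit, open points mark summits nearer to another gene's 5′ end, and thick bars are genes. The peak at unc-112, 385 bp upstream with a score of 2781, stands above all others, and pat-4, pat-6 and unc-97 also have a peak between 341 and 438 bp upstream.

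Kindlin and the 3 parts of the integrin-linked kinase complex each had a LIN-14 peak close upstream of the gene. These were unc-112 (kindlin, which binds the tail of beta integrin), pat-4 (integrin-linked kinase, an adaptor with a kinase-like fold), pat-6 (parvin, which links the complex to actin) and unc-97 (PINCH, a LIM-domain adaptor). The summits lay 385, 344, 341 and 438 bp upstream of their annotated 5′ ends, and none of these summits was nearer to another gene's 5′ end. Among the 4599 protein-coding genes with a peak in the promoter window, the quartiles of the distances were 108 and 435 bp upstream, with a median of 222 bp. Since the 5′ ends of many worm transcripts are removed by trans-splicing, the annotated 5′ ends are not always the starts of transcription. The sequence within 50 bp of each of these summits is given here because these are the promoter peaks of kindlin and the complex. The summit 1169 bp upstream of unc-97, outside the promoter window, is added as the strongest of that gene, together with the promoter summit of pat-3, which encodes the integrin chain that the complex sits on. Each was read from the RefSeq copy of the WBcel235 genome and is written 5′ to 3′ on the strand of its gene with the summit in the middle, and capitals mark 2 kinds of words, on either strand. The first is a word of GGA with C or T before it and A or G after it, searched as a candidate core of LIN-14 sites, and the second is the repeat GAGAGA.
unc-112, 385 bp upstream, chrV:14696989-14697089, minus strand: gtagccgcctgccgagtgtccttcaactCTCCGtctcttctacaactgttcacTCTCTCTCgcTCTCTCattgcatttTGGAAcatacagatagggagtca
pat-4, 344 bp upstream, chrIII:95103-95203, minus strand: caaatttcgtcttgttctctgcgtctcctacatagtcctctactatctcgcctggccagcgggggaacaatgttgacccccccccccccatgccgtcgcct
pat-6, 341 bp upstream, chrIV:264523-264623, minus strand: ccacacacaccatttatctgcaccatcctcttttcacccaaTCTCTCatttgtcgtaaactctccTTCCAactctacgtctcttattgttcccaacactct
unc-97, 438 bp upstream, chrX:5592645-5592745, plus strand: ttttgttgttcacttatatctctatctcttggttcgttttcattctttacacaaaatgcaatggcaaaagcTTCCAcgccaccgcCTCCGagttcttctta
unc-97, 1169 bp upstream, chrX:5591914-5592014, plus strand: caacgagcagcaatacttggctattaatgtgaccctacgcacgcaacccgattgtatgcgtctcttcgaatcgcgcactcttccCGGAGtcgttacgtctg
pat-3, 877 bp upstream, chrIII:3914976-3915076, minus strand: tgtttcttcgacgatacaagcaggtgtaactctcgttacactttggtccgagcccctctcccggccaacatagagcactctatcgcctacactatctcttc

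The peak at unc-112 was the strongest of the 40. It lies at chrV:14696796-14697331 on the WBcel235 (ce11) assembly, beside a gene at 14691855 to 14696654 on the minus strand, and its score of 2781 gave it rank 207 of 11507. The same site scored 1642 in the list of replicate 1 and 1148 in that of replicate 2, at ranks 172 and 260, with summits 0 and 5 bp away. Among all protein-coding genes, 1.85% had a peak of at least this score in their window. The sequence at this summit holds TCTCTC, the reverse complement of GAGAGA, in 2 clusters just 3′ of the summit, with CTCCG 22 bases before it and TGGAA 28 bases after it. A second, weak peak of score 286.0 (158.9 and 124.4 in replicates 1 and 2) lay in intron 2 of 5, 1199 bp inside the gene. The next gene, set-5, starts 1927 bp from the main summit.

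At pat-4 (chrIII:89453-94809, minus strand) the promoter peak at chrIII:95023-95298 had a score of 770.0, rank 2325, with 461.3 in replicate 1 and 316.6 in replicate 2. None of the marked words lies within 50 bp of that summit, which has a run of C and the highest GC content of the 40, 58.4%. Farther from the gene, a peak of 476.6 lay 1555 bp upstream. Its summit is nearer to the 5′ end of C29F9.8, at 754 bp, but lies past the 3′ end of that gene. Another peak, of 325.2, lay 96 bp past the 3′ end of pat-4. The peak past the 3′ end of pat-4 was the only one of the 3 with a lower score in replicate 1 (156.5) than in replicate 2 (161.9).

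At pat-6 (chrIV:261886-264232, minus strand) the promoter peak at chrIV:264450-264716 had a score of 686.3, rank 2724, with 399.7 in replicate 1 and 280.2 in replicate 2. A second peak of 564.2 lay 89 bp past the 3′ end of pat-6. That summit is 114 bp upstream of the 5′ end of the neighbour pqbp-1.1, which is read in the same direction, and is thus nearer to pqbp-1.1 than to pat-6.

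At unc-97 (chrX:5593133-5594965, plus strand) the stronger peak was not the promoter one. The peak 1169 bp upstream, at chrX:5591800-5592148, had a score of 954.3, rank 1675, with 591.4 in replicate 1 and 370.4 in replicate 2. The peak 438 bp upstream had 338.2, with 199.4 and 144.4 in replicates 1 and 2. The summits are 731 bp apart, and no other protein-coding gene has a 5′ end nearer to either. A weak peak of 197.4 lay 170 bp past the 3′ end. This made 3 peaks in a window of 7.83 kb, or 0.383 per kb, the highest density among the 10 genes; 5.95% of all protein-coding genes reached it.

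The integrin genes differed from each other in the position of their peaks. The beta chain gene pat-3 (chrIII:3908931-3914149, minus strand) had 4 peaks, while the alpha chain gene pat-2 (chrIII:8818899-8825266, plus strand) had 1. At pat-3 the promoter peak, 877 bp upstream at chrIII:3914950-3915075, was the weakest of its 4, with a score of 328.7 and rank 6244, and with 222.2 in replicate 1 and 111.3 in replicate 2. The summits 1738 and 2674 bp upstream scored 418.2 and 377.5, and both lie nearer to the divergent gene ccdc-47, the second of them 144 bp upstream of its 5′ end. The strongest, 822.5 with 460.3 and 358.1 in replicates 1 and 2, lay 511 bp past the 3′ end of pat-3 and 733 bp upstream of mmcm-1. Thus 1 of the 4 peaks was nearest to pat-3.

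The only peak of pat-2 lay 3010 bp upstream, at chrIII:8815728-8816059. It had a score of 513.6, rank 3920, with 280.9 in replicate 1 and 241.3 in replicate 2. The next nearest 5′ end, of prx-19, is 6594 bp away, so that pat-2 was the nearest gene by a wide margin. The sequences at the strongest summits of pat-2 and pat-3 are shown for comparison with the promoter summits above, and each holds GAGAGA 3′ of the summit, at 17 and 12 bases, with none of the GGA words.
pat-2, 3010 bp upstream, chrIII:8815839-8815939, plus strand: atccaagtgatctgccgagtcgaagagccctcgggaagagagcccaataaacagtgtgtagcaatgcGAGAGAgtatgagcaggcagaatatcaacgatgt
pat-3, 511 bp past the 3′ end, chrIII:3908370-3908470, minus strand: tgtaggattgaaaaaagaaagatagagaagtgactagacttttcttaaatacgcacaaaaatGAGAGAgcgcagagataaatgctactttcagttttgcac

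The vinculin gene deb-1 (chrIV:7085215-7094266, minus strand) had the second strongest peak of the 40, but that peak lay at the promoter of a ribosomal protein gene. At chrIV:7084790-7085142, it had a score of 1901, rank 494, with 1086 in replicate 1 and 829.9 in replicate 2. Its summit is 252 bp past the 3′ end of deb-1 and 281 bp upstream of rps-4. The nearest peak group on the 5′ side of deb-1 consisted of 1 interval, chrIV:7095345-7095914, listed with 2 summits 1279 and 1482 bp upstream, with scores of 844.8 and 254.4. At the stronger of these summits, which has CGGAA at 2 positions within 50 bp, replicate 1 gave 457.3 and replicate 2 gave 389.2. Its weaker partner had the lowest ratio of replicate 1 to replicate 2 of the 40, with 90.5 and 168.1. Peaks of 308.4 and 631.4 lay 2070 and 4440 bp upstream, the farther one inside the small gene ZC477.4, 78 bp from its 5′ end. None of the 4 annotated 5′ ends of deb-1 had a peak in its promoter window. The sequence of the strongest summit is given to show the site shared with rps-4.
deb-1, 252 bp past the 3′ end, chrIV:7084913-7085013, minus strand: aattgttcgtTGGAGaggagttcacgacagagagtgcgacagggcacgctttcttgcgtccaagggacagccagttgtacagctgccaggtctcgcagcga

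The LIM-domain gene unc-95 (chrI:14381360-14384737, minus strand), whose protein is found at dense bodies and M-lines, had a single peak far from the gene. It lay 4324 bp upstream with a score of 503.5, rank 4004, and had 279.8 in replicate 1 and 237.1 in replicate 2. The 5′ end of lev-10, at 1272 bp, was nearer, so unc-95 was the only 1 of the 10 genes without a peak nearest to it.

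**Figure D2:**
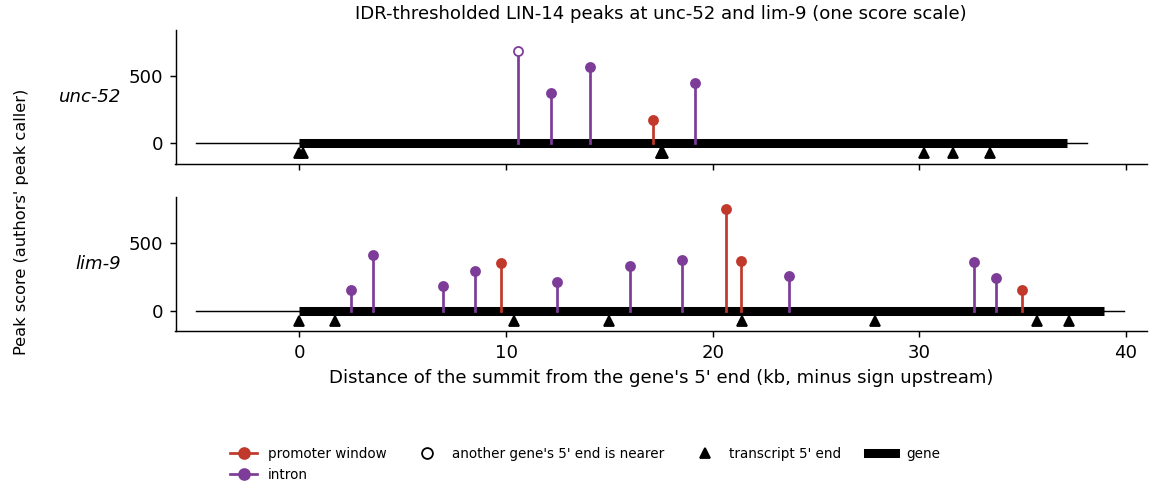
LIN-14 peaks at unc-52 and lim-9, with the distance of each summit from the gene's 5′ end in kb (x axis) against the score in the IDR-thresholded list (y axis, the same scale in both panels). Colours give the place of the summit, the open point is a summit nearer to another gene's 5′ end, thick bars are genes and triangles mark the 5′ ends of annotated transcripts. Neither gene has a peak upstream of its first 5′ end; the summits of unc-52 begin 10590 bp inside the gene and those of lim-9 are spread over 14 places.

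The perlecan gene unc-52, whose product is the matrix proteoglycan beneath the muscle, and lim-9, which encodes a LIM-domain protein of the FHL family, are the longest of the 10, at 37136 and 38919 bp. In contrast to the shorter genes, all of their peaks lay inside the gene. At unc-52 (chrII:14647321-14684456, minus strand) there were 5 peaks, none within 10 kb of the first 5′ end. Intron 11 of 43 of the longest coding transcript, 8781 bp long, held 4 of them. In that intron 3 of the 8 annotated 5′ ends of unc-52 also lie, all in its last part. The scores in the order of the gene were 679.6, 368.1, 563.3 and 168.6, and the last of these lay 400 bp upstream of an internal 5′ end and was the only peak of unc-52 in a promoter window. It was also the least even between replicates, with 115.2 in replicate 1 and 53.4 in replicate 2, a log2 ratio of 1.11. The fifth peak, 443.9, lay in intron 14.

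The strongest peak of unc-52, at chrII:14673699-14674020 with rank 2764, had 382.2 in replicate 1 and 306.9 in replicate 2. It lies 4591 bp upstream of hhat-1, a gene of the opposite strand nested inside unc-52, and 6923 bp upstream of the nearest downstream 5′ end of unc-52 itself. Its sequence, given because it is the top site of the gene, carries TCTCTC at the summit and none of the GGA words.
unc-52, intron 11, chrII:14673816-14673916, minus strand: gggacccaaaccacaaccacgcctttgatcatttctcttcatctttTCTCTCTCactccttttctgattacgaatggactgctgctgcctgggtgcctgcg

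At lim-9 (chrI:9181810-9220728, minus strand) there were 14 peaks, more than at any other of the 10 genes. With lim-9 included, 24 protein-coding genes, 0.12% of all, had at least as many, although per kb of window lim-9 had 0.312 and 9.29% of genes reached that. The scores were modest, from 154.8 to 750.2 with a median of 314.1. Introns 3, 6, 7 and 12 of 17 held 5, 1, 5 and 3 of the summits and are 8158, 3657, 10462 and 6490 bp long. Of the 14 summits, 4 lay in the promoter window of an internal transcript. The strongest was 761 bp upstream of the 5′ end in intron 7, at chrI:9199866-9200270, with 458.1 in replicate 1 and 295.7 in replicate 2. A second, 67 bp upstream of the same 5′ end, had 368.4, with 201.2 and 180.0 in replicates 1 and 2. The other two lay 652 and 735 bp before different internal 5′ ends. The first of them had a score of 353.5, with 204.1 in replicate 1 and 160.9 in replicate 2. The other had 154.8, with 68.8 in replicate 1 and 77.1 in replicate 2, and was the weakest of all 40 peaks. All 14 summits were nearer to a 5′ end of lim-9 than to one of any other gene.

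Of the 40 peaks, 30 were nearest to a 5′ end of the attachment gene itself and 10 to that of another gene. Of the 30, 14 lay inside lim-9 and 4 inside unc-52. These are long genes with 8 annotated 5′ ends each, so that an own 5′ end is often the nearest there. The share of such peaks over all genes was not computed. At deb-1, pat-3, unc-95 and unc-52 the strongest peak was nearest to another gene. A summit 264 bp beyond the upstream limit of deb-1 (score 494.3) and 1 lying 781 bp beyond the downstream limit of unc-52 (score 1240) were the nearest left out by the windows. The farthest upstream summits taken in were those of deb-1 at 4440 bp (631.4) and unc-95 at 4324 bp (503.5).

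All 40 peaks had a summit within 100 bp in both replicate lists, against 96.6% of all IDR-thresholded peaks. The IDR list was derived from these lists, so this match is not an independent measure of agreement. Scores were higher in replicate 1 at 35 of the 40 sites, against 9608 of the 11120 IDR-thresholded peaks matched in both. The median log2 ratio of replicate 1 to replicate 2 was 0.40 (SD 0.34 over 40 peaks), against 0.35 (SD 0.41) over the 11120. After that general shift of 0.35, 1 of the 40 differed by over 2-fold, against 328 of the 11120. That peak was the weaker deb-1 summit described above. Among as many of the highest scoring peaks of each replicate as the IDR list holds, 37 of the 40 were found in both, a share not computed over all IDR-thresholded peaks. The other 3 were the promoter peak of unc-52, at rank 14171 in replicate 2, and lim-9 peaks at rank 13436 in replicate 2 and 13298 in replicate 1.

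**Figure D3:**
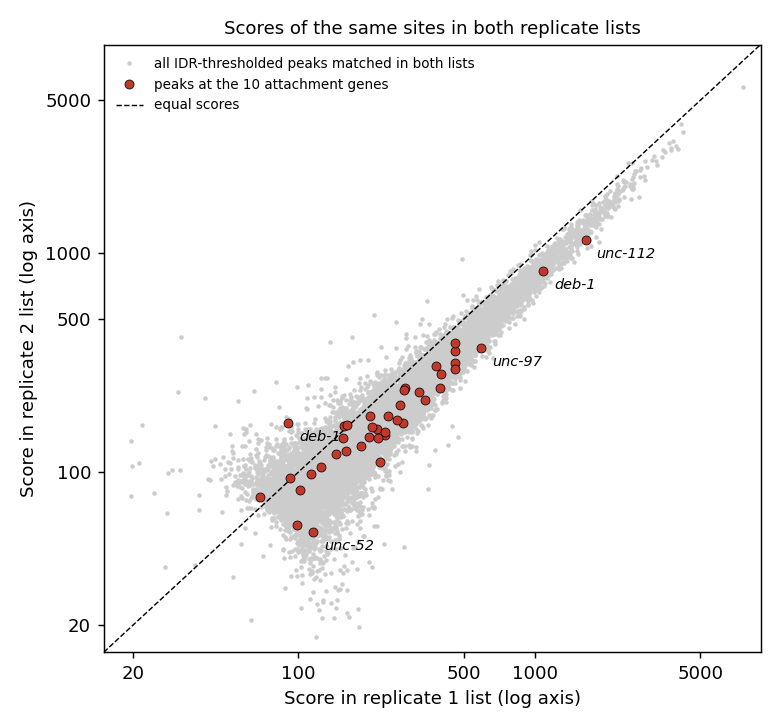
Score of each site in the list of replicate 1 (x axis) against that of replicate 2 (y axis), both log axes without units, for the 40 peaks at the attachment genes (red) and for all 11120 IDR-thresholded peaks matched in both lists (grey). Most red points lie below the line of equal scores like the grey ones, and a deb-1 and an unc-52 peak at low scores lie farthest from the others on either side.

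The pooled list held 37 more peaks in the windows, below the IDR threshold, of which 16 were matched in both replicates and 4 in neither. With them each of the 10 genes had a peak in a promoter window, against 31.7% of all protein-coding genes in the pooled list. In the gene window the pooled list had a peak at each of the 10, against 51.5% of all. The 3 genes without a promoter peak in the IDR list came to this count by peaks under the lowest score of that list, 147.5. These were a summit 986 bp upstream of pat-2 with 145.0, one 316 bp upstream of unc-95 with 135.5 and one before an internal 5′ end of deb-1 with 120.7. The first and second were found in replicate 2 only and the third in replicate 1 only. Of the 37, 21 lay at lim-9.

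The repeat GAGAGA or its reverse complement TCTCTC lay within 50 bp of 16 of the 40 summits (40.0%), against 26.4% of all 11507. In windows of the same length centred 300 bp to the left and right, it was present at 1 and 4 of the 40 sites, and at 6.30% and 5.37% of all. It was found at the strongest summits of unc-112, pat-6, pat-2, pat-3, unc-52, unc-95 and lim-9, and not at those of pat-4, unc-97 and deb-1. The share among the strongest peaks of all genes was not computed. The word CGGAG (reverse complement CTCCG) lay at 8 of the 40, against 15.8% of all, with 4 and 6 of the 40 and 7.82% and 7.89% of all in the left and right side windows. The word CGGAA (reverse complement TTCCG) also lay at 8 of the 40, against 18.0% of all, with 4 and 1 of the 40 and 16.1% and 15.8% of all in the side windows. At 10 of the 40 there was TGGAA (reverse complement TTCCA), against 22.2% of all, and this word was more frequent in the side windows, at 12 and 12 of the 40 and at 30.9% of all on either side. At 7 of the 40, or 17.5%, there was TGGAG (reverse complement CTCCA), against 19.4% of all, with 8 and 6 of the 40 and 14.4% of all on either side in the side windows. At least 1 of these 4 words was at 26 of the 40 (65.0%), against 56.9% of all. The palindromes CAGCTG, a site bound by the muscle factor HLH-1, and CACGTG were each at 1 of the 40, against 3.08% and 4.81% of all. The first was at the deb-1 summit past the 3′ end and the second at the pat-4 summit past the 3′ end. CGGAG and TGGAG can share letters with GAGAGA where they run into each other. The 101 bases at the summits had a median GC content of 44.6%, against 43.6% for all peaks. These counts are a description of the letters at the summits and were not tested.

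Other genes of the muscle attachment and its surroundings also had peaks. Over all protein-coding genes, 45.1% had a peak in the gene window and 23.0% in the promoter window. Of 22 further attachment genes, 21 had a peak in the gene window and 16 in the promoter window, led by tln-1 (talin, 1799), pix-1 (a guanine nucleotide exchange factor, 1434), git-1 (its partner, 1382) and dyc-1 (1262), and sorb-1 had none. Of 11 thick filament and M-line genes, 10 had a peak in both kinds of window, led by unc-22 (twitchin, 1841), unc-82 (1245), unc-89 (obscurin, 1207) and ttn-1 (a titin-like protein, 953.4), and unc-45, a myosin chaperone, had none. Of 13 thin filament genes, all 13 had a peak in the gene window and 12 in the promoter window, led by unc-60 (ADF/cofilin, 2837), lev-11 (tropomyosin, 1715) and the neighbouring, near-identical actin genes act-1, act-2 and act-3, which share a peak of 1620. Of 10 genes for the epidermal attachments opposite the muscle, 9 had a peak in the gene window and 6 in the promoter window, led by vab-10 (a spectraplakin, 2367), mup-4 (1639), let-805 (myotactin, 845.2) and mua-6 (an intermediate filament protein, 762.9), and mua-3 had none. The median of the strongest score was 760.1 over the 10 integrin attachment genes, 790.7 over the further attachment genes, 742.1 over thick filament genes, 1132 over thin filament genes and 560.2 over epidermal attachment genes, against 638.4 over all protein-coding genes with a peak. The order of the integrin attachment genes and all genes turned with the higher scoring 50% of the peaks, where the median rank percentile of the strongest peak was 58.9 over the 10 genes, against 63.1 over all protein-coding genes with a peak. In the whole IDR list it was 79.5 over the 10, against 73.9 over all. All 10 kept a peak in the higher scoring 50%. Genes with a peak fell from 45.1% to 34.2% of all protein-coding genes. The median number of peaks per kb of window was 0.252, 0.161, 0.222, 0.50 and 0.137 in the same order. Over all protein-coding genes it was 0, since only 45.1% of them had a peak. Summed peaks over summed window length gave 0.229, 0.184, 0.144, 0.429 and 0.129 per kb in that order, against 0.105 over all. Median windows were 11.3, 14.8, 13.6, 8.005 and 21.3 kb, against 8.03 kb over all. These lists were chosen by name, with earlier results of these data known, and no difference between them was tested.

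**Figure D4:**
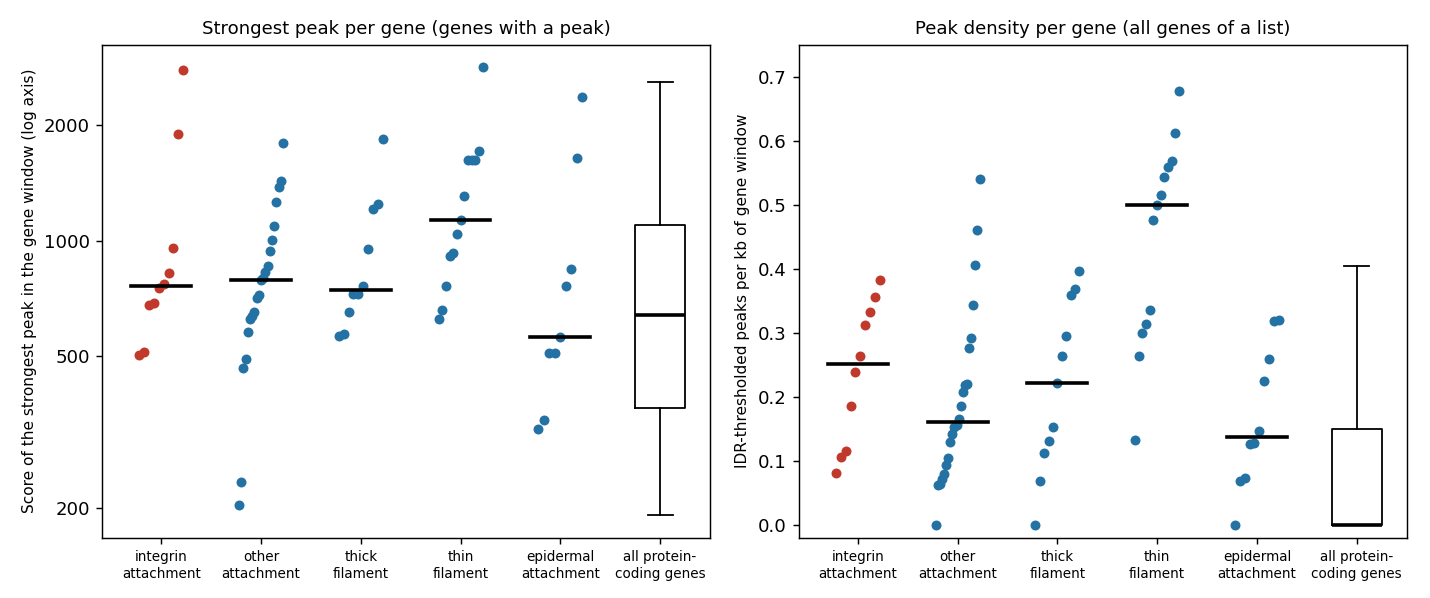
Score of the strongest peak in the gene window on a log axis (left, genes with a peak) and IDR-thresholded peaks per kb of gene window (right, all genes of a list), with 1 point per gene, ordered by value within a list, and a black bar at the median. The box of all protein-coding genes spans the quartiles with whiskers at the 5th and 95th percentiles; the integrin attachment genes lie between 503.5 and 2781 on the left, and thin filament genes have the highest median in both panels.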

How the data were processed

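Peak lists were deposited by the authors on ce11 in narrowPeak form. Per the files' README texts, 1 list was called on each replicate and 1 on both together, each against a control file, and the IDR-thresholded list was derived from these 3. The sources used here do not name the aligner, the peak caller or the IDR threshold. The deposited score (column 7) was used as the authors gave it, and only to rank and describe peaks within a list. Summits are column 2 plus column 10, counted from 1 here. Peak ends fell within the chromosome lengths of the RefSeq WBcel235 sequence, and gene models were those of Ensembl release 115.

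The 10 genes and the comparison lists were chosen with earlier results of these data known. Of the comparison names, tmd-1 matched no gene name and was left out. All 10 genes are named; of each other list, up to 4 with the highest scores, ties included, are named, and genes without a peak were named after their values were seen. The words searched were likewise chosen with earlier results known. No statistical test was made, since the design has 1 group; window counting was checked on simulated summits. Alternatives covered the peak list, score threshold, merging, windows, matching distance and single replicates; those for the comparison lists were chosen after seeing the data. Python 3.11.15 and NumPy 2.4.6 were used.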

Additional observations from a re-analysis of the deposited data

How the results depend on the processing

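Of 41 values recomputed under alternatives for the 10 genes, 32 stayed close to those reported (counts within 1.5 times, the rank percentile within 1 SD of the single replicates) and 9 moved. That SD, 3.13, came from the single-replicate percentiles themselves (81.2 and 76.8), so that these 2 staying close is no independent check. The limit of 1.5 times is wide for small counts: 10 genes with a promoter peak in the pooled list, against 7 in the IDR list, counted as close. With the pooled list the peaks in the windows came to 77, their density to 0.4415 per kb (0.219 over all protein-coding genes) and the median percentile of the strongest peak to 90.4 (85.4 over all). With the higher scoring 50% these were 22, 0.126 (0.0572 over all) and 58.9 (63.1 over all), and 4 of the 10 genes had a promoter peak, against 15.4% of all. With the gene body alone there were 20 peaks, at 3 of the 10 genes, against 10.7% of all. Cut to its 11507 highest scoring peaks, the list of replicate 1 alone gave 40 peaks at 10 genes, against 46.1% of all genes. It gave a promoter peak at 7, against 23.5% of all. The list of replicate 2 alone, cut in the same way, gave 40 peaks at 10 genes, against 47.1% of all. It gave a promoter peak at 6, against 23.9% of all. Of 56 such values for the comparison lists, 54 stayed close and 2 moved, both with the gene body alone. No paired analysis was possible because there is 1 group.

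Read depth is unknown, and the scores of the replicate lists are on scales other than that of the IDR-thresholded and pooled lists. Annotated 5′ ends, gene length and neighbouring genes set which peaks a gene is given.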
